A study of Mus musculus with 12 samples.

Results

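Laminins and nidogens are secreted glycoproteins that build basement membranes, the thin matrix sheets beneath epithelia and around muscle, fat and vessels. Expression of 9 such genes was followed across 12 Affymetrix arrays of NIH3T3 cells, an established mouse fibroblast line: the laminin chains Lama2, Lama4, Lama5, Lamb1, Lamb2 and Lamc1, the nidogens Nid1 and Nid2, and Hspg2, which encodes perlecan. They were taken by symbol as all probe sets that the platform annotation assigns to one of these genes alone. That gave 19 of 34945 probe sets with 1 symbol, or 9 of 18193 genes. Lamb1 had 4 probe sets, Lama5 and Nid1 had 3 each, Lama4, Lamc1 and Hspg2 had 2 each, and Lama2, Lamb2 and Nid2 had 1 each.

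All cells had been infected with a virus, and there were 6 groups of 2 arrays. Control vector cells were harvested at 30% confluency (called low density) and at complete confluency. Cells expressing Tead2-EnR, a fusion of the DNA-binding factor Tead2 with the repression domain of Engrailed, were harvested at 30% of their own confluency. Cells expressing Tead2-VP16, in which Tead2 carries a viral activation domain, were harvested at complete confluency. Yap, a coactivator that binds Tead factors, and Tead2-VP16 were also studied in proliferating cells at a density slightly above that at which normal cells are confluent (called high density). No control cells were taken at that high density. The promoter of the vectors, the number of clones and the origin of the 2 arrays per group (1 culture or more) are not given in the sources used here, so the p-values measure only the spread between these arrays, which may be technical.

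A laminin molecule is a heterotrimer of 1 alpha, 1 beta and 1 gamma chain, assembled inside the cell. The trimers polymerise at the cell surface, where the alpha chain binds integrins and dystroglycan. Nidogens bind the gamma 1 chain as well as collagen IV, and perlecan is a heparan sulphate proteoglycan of the same matrix. Fibroblasts make these proteins too and shed part of them into the surrounding matrix.

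Promoter sequences from RefSeq (build GRCm38.p6, 250 bases before to 50 after the gene start) were matched for 6 of the 9 genes: Lama2, Lama5, Lamb1, Lamb2, Nid1 and Hspg2. The letters GGAATG, the core that Tead factors recognise, were searched on both strands. They occurred in 1 of the 6, Nid1, at position -165 from the start, and in 14.7% of 32851 RefSeq promoter windows of the same length. Nid1 is shown because its change against control differed in sign between the 2 Tead2 fusions, and the beta chain genes Lamb1 and Lamb2 because their changes with density differed in size. The change of Nid2 also differed in sign between the fusions, but no window was matched for that gene. Capitals mark GGAATG, which neither beta chain window holds. The GC box GGGCGG, on either strand, occurred in 5 of the 6 windows and in 35.7% of all. Lamb2 was the one without it, and its window was 44% G and C, against 63.7% for Lamb1, 64.7% for Nid1 and a median of 52.7% over all windows. No match of one motif overlapped a match of the other in these windows. A match of letters is a description and no evidence of binding. The windows lie on the plus strand at chr13:13437352-13437651 (Nid1), chr12:31265043-31265342 (Lamb1) and chr9:108479612-108479911 (Lamb2).
Nid1: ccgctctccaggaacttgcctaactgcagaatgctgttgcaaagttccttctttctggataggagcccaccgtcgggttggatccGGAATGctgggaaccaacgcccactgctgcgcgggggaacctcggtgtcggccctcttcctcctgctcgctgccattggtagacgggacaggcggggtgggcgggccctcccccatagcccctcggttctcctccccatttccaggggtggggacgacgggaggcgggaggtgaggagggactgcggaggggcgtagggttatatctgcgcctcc
Lamb1: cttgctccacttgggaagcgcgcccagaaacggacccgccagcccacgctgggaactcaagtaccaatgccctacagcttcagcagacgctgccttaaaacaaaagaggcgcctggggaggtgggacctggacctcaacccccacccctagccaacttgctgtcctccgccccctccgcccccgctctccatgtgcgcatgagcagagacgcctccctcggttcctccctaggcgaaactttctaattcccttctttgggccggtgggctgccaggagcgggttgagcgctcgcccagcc
Lamb2: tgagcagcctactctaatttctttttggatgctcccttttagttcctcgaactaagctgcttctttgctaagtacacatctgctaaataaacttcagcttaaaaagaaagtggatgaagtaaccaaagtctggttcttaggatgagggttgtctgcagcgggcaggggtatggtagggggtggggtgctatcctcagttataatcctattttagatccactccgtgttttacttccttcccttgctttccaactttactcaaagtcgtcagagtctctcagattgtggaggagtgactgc

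Values are given as log2 intensity, errors as SD over 2 arrays or as SE of the fit, and each gene is read from its probe set with the highest mean unless another is named. Levels of different genes come from different probe sets and are not compared. The cells carried the fibroblast markers, with 8 of 9 above the median gene of 6.87 (Col1a1, Col1a2, Col3a1, Pdgfra, Pdgfrb, Thy1, Vim and S100a4). Of the markers of other cell types, 0 of 6 endothelial and 0 of 4 adipocyte genes were above it, 2 of 6 epithelial (Epcam and Krt14), 1 of 5 muscle (Des) and 2 of 5 macrophage genes (Csf1r and Lyz2). Yap1 (9.65 to 9.96 over the group means) was not higher in Yap cells, and Tead2 (9.05 to 9.88) was highest in confluent control. Whether their probe sets lie in the introduced sequences is not given in the sources used here, so these 2 genes check no label. Ccn2, also set as a check, was at 11.60 in low-density control, 10.99 with Tead2-EnR and 9.74 with Yap. It was at 8.84 with Tead2-VP16 at high density, 6.63 with confluent Tead2-VP16 and 6.51 in confluent control. Between confluent Tead2-VP16 and confluent control it was not called.

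Nid2 was the member with the widest range. Its 2 arrays read 5.26 and 5.47 in low-density control, 6.65 and 6.74 with Tead2-EnR, 6.94 and 7.03 with Yap, 7.12 and 7.14 with Tead2-VP16 at high density, 8.29 and 8.43 with confluent Tead2-VP16, and 8.98 and 8.83 in confluent control. No 2 groups overlapped, but with 2 arrays per group this is a weak criterion, and its share over all genes was not counted. The low-density control arrays, at intensities of 38.3 and 44.3, lay below the array medians of 51.9 to 53.7, and Tead2-EnR cells below the median gene, so that background can compress the Nid2 folds given later from either, which are folds of the measured intensity. In this order, every step between neighbours passed the test except that from Yap to Tead2-VP16 at high density (a difference of 0.14, adjusted p = 0.527).

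Nid1, the other nidogen, had another order. It read 10.15 and 10.02 with Tead2-EnR, 10.24 and 10.30 in confluent control, 10.40 and 10.36 with Yap, 10.86 and 10.64 in low-density control, 10.82 and 10.80 with Tead2-VP16 at high density, and 10.91 and 10.93 with confluent Tead2-VP16. The groups thus fell into a lower set of 3 and a higher set of 3, and the only step between neighbours that passed was the one between these sets, from Yap to low-density control (0.38, adjusted p = 0.00239). The array-wise difference Nid2 minus Nid1, of which only shifts have meaning, went from -5.39 ± 0.30 in low-density control to -1.37 ± 0.14 in confluent control (SD, n = 2). With confluent Tead2-VP16 it stood at -2.56 ± 0.08. The second Nid1 probe set gave the same direction as the first in each comparison in which the first was called, and the third, at 2.56 to 3.01, was called in none.

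Of the beta chains, Lamb2 read 7.58 and 7.78 in low-density control, 8.78 and 8.89 with Tead2-EnR, 9.08 and 9.06 with Yap, 9.18 and 9.06 with Tead2-VP16 at high density, 9.36 and 9.26 in confluent control, and 9.61 and 9.71 with confluent Tead2-VP16. Low-density control lay apart, well below every other array. The steps from low-density control to Tead2-EnR (1.15) and from confluent control to confluent Tead2-VP16 (0.35) passed the test, and the 3 steps between them did not.

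On its brightest probe set, Lamb1, the beta chain of the most widespread laminins, moved over less than 1 log2 unit. It read 9.62 and 9.59 with Tead2-EnR, 9.75 and 9.76 with Yap, 10.05 and 9.96 with Tead2-VP16 at high density, 10.13 and 10.05 in low-density control, 10.22 and 10.38 in confluent control, and 10.45 and 10.50 with confluent Tead2-VP16. Tead2-EnR and Yap cells were lowest, and the step from low-density to confluent control was the only one between neighbours that passed (0.21, adjusted p = 0.0249). On the Lamb1 probe set with the widest range, the group means ran from 6.94 to 8.15. The array-wise difference Lamb2 minus Lamb1 was -2.41 ± 0.19 in low-density control and between -0.99 and -0.69 in the means of the other 5 groups.

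Lamc1 encodes gamma 1, the chain that most laminin trimers and the nidogen bond share. Its arrays read 8.72 and 8.64 with Tead2-EnR, 8.76 and 8.82 in low-density control, 9.19 and 9.16 with Yap, 9.55 and 9.48 in confluent control, 9.71 and 9.56 with Tead2-VP16 at high density, and 10.11 and 10.21 with confluent Tead2-VP16. On this probe set, both low-density groups were at the bottom and both Tead2-VP16 groups at the top. On the second, confluent control (9.05) lay above Tead2-VP16 at high density (8.92). The steps up from low-density control to Yap (0.38), from Yap to confluent control (0.34) and from Tead2-VP16 at high density to complete confluency (0.52) passed the test.

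Among the alpha chains, Lama4, found in mesenchyme and vessel walls, read 8.04 and 8.30 in low-density control, 8.75 and 8.67 with Tead2-EnR, 8.83 and 8.89 with Yap, 9.04 and 9.03 with Tead2-VP16 at high density, 8.98 and 9.10 in confluent control, and 9.27 and 9.32 with confluent Tead2-VP16. Low-density control was again lowest, and the step to Tead2-EnR (0.54, adjusted p = 0.00052) was the one between neighbours that passed.

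Lama5, the alpha chain of many epithelial and vascular basement membranes, lay between 6.93 and 7.30 on all 12 arrays, and Lama2, that of muscle and nerve, between 6.14 and 6.57. Hspg2 lay between 9.11 and 9.51. For these 3 genes no step between neighbouring groups passed the test and none of the 7 comparisons described next called them. In other pairs of groups, Hspg2 was called lower with confluent Tead2-VP16 than in low-density control (-0.30, adjusted p = 0.00899). It was called higher with Tead2-EnR than with confluent Tead2-VP16 (0.23, adjusted p = 0.042). On the second Hspg2 probe set both differences ran the other way. That probe set was at 8.96 with confluent Tead2-VP16, 8.60 in low-density control and 8.64 with Tead2-EnR. Of all genes, 23.5% were called between Tead2-EnR and Yap, 42.4% between low-density control and Yap, 42.9% between low-density control and Tead2-VP16 at high density, 36.7% between Tead2-EnR and confluent Tead2-VP16, and 27.5% between Yap and confluent Tead2-VP16, the pairs of neighbours that no later comparison covers. Lama2 was below the median gene, where background can compress a change.

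**Figure D1:**
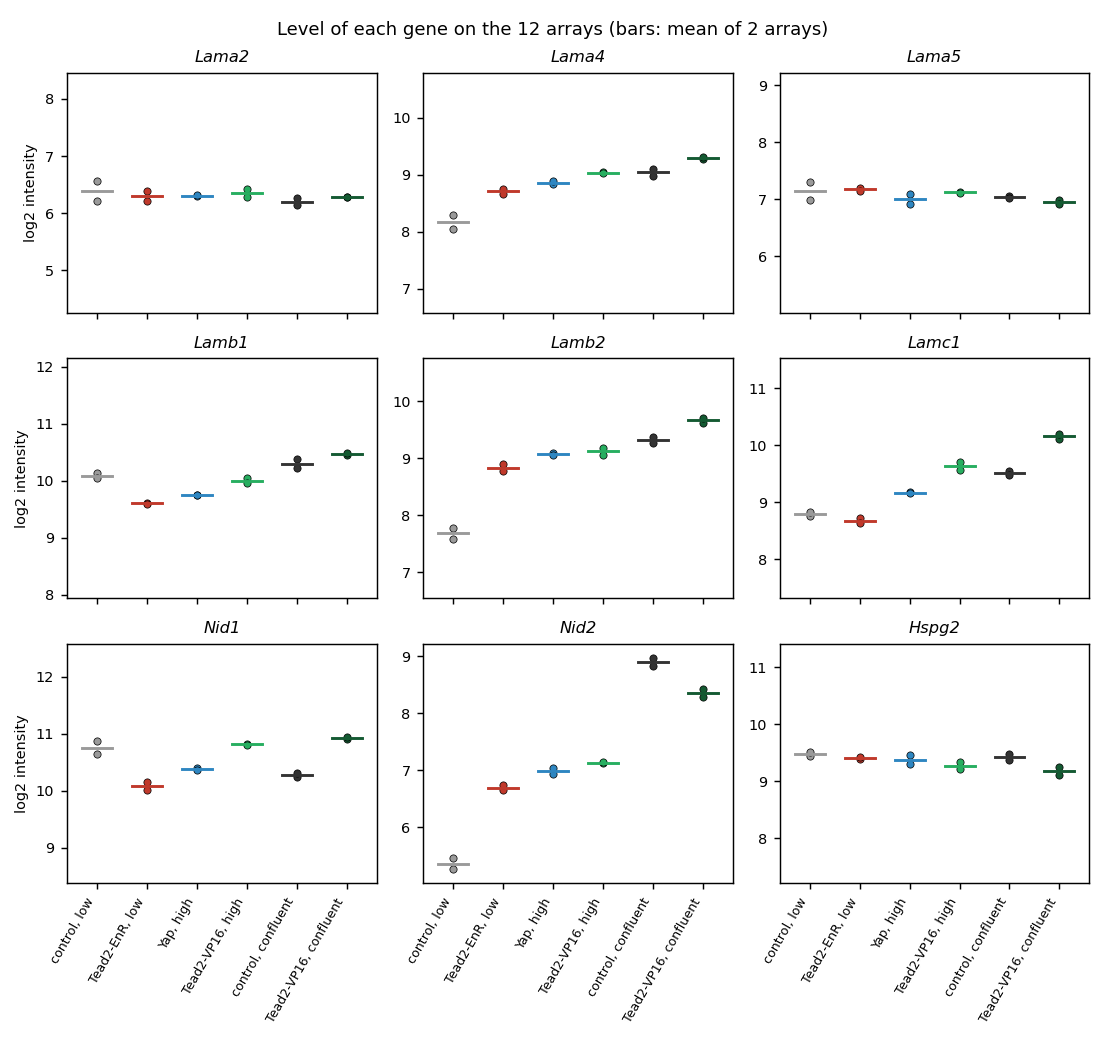
Log2 intensity (vertical axes, each spanning the same number of log2 units) of the 9 genes on 12 arrays, by group: points are arrays and bars the mean of 2. Nid2 climbed from 5.36 in low-density control to 8.91 in confluent control, while Lama2, Lama5 and Hspg2 stayed nearly level.

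The density comparison in control cells asked what complete confluency did to these genes without any Tead fusion. The basement membrane genes split. Nid2 rose 11.6-fold, from 5.36 ± 0.15 to 8.91 ± 0.10 (SD, n = 2; log2 fold change 3.54 ± 0.09 SE, adjusted p = 9.2e-10). Lamb2 rose 3.10-fold, Lama4 1.83-fold and Lamc1 1.65-fold, whereas Nid1 fell by 0.48 on the log2 scale, from 10.75 ± 0.15 to 10.27 ± 0.04 (SD, n = 2).

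Lamb1 rose by 0.21, the smallest of the calls. In all, 5 of the 9 genes rose and 1 fell. Of all genes tested, 26.1% were called higher and 22.8% lower, 48.9% in either direction, so a call was common in this comparison. The members' median was 0.21 and that of all genes -0.011. The rises of Lama4 and Lamc1 had the same direction and passed on both of their probe sets (0.87 and 0.91; 0.72 and 0.62), Lamb1 was called on 3 of 4, and the fall of Nid1 was -0.48 and -0.67 on the 2 brighter of its 3 probe sets. Perlecan was at -0.06 on one probe set and 0.25 on the other, neither called. Counted by probe set, 9 of 19 rose and 2 fell, with 45.5% of all probe sets called.

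With each array centred on its median, the median of all genes moved by -0.13 in this comparison and by -0.12 in that of Tead2-EnR. Lamb1 was then at 0.08 and not called with density, and Lama2 at -0.32 and called. The Lamb1 call was also lost in a fit of the 4 arrays alone (adjusted p = 0.0978), without the second low-density array (0.17) and without the second confluent array (0.13). By contrast, Lama2 was called without the second low-density array (-0.37), and Lama5 without the first (-0.25). Beside these values, the gap between the 3′ and 5′ control probe sets, which widens as RNA degrades, went with density from 0.98 ± 0.05 to 1.30 ± 0.19 for Tfrc, from 0.08 ± 0.01 to 0.23 ± 0.02 for actin and from -0.23 ± 0.01 to -0.28 ± 0.03 for Gapdh, and the poly-A spike-ins from 8.30 ± 0.08 to 8.71 ± 0.14 (log2, SD, n = 2). The summed intensity of the 6 epithelial markers was 2747 to 2992 on the low-density and 1586 to 1632 on the confluent arrays, with Krt14 at 11.31 and 10.11 in the group means and Epcam at 7.14 and 8.39. That of the 9 fibroblast markers was 67368 to 68690 and 104526 to 106782. Their part in the result was not tested. In these bulk samples, fewer cells of a kind and less RNA per cell cannot be told apart.

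Within Tead2-VP16 cells, the step from high density to complete confluency asked the same of cells with the activator, from a higher starting density. Nid2 rose 2.35-fold, from 7.13 ± 0.01 to 8.36 ± 0.10 (SD, n = 2; adjusted p = 1.7e-05). Lamb2 (0.54), Lamc1 (0.52) and Lamb1 (0.47) rose by similar amounts, each with adjusted p below that of Lama4 (0.26, adjusted p = 0.048). Nid1 was at 0.11 and did not pass. So 5 of 9 genes rose, where 12.1% of all genes were called higher and 12.4% lower (24.5% in all), and by probe set 6 of 19 rose, with 20.6% of all probe sets called. The Lama4 call was lost when all probe sets were tested (adjusted p = 0.0611) and without any one of the 4 arrays. The second Lamc1 probe set was at 0.34 and was not called. The 2 density steps start at different densities and their sizes were not compared. The Tfrc gap was 1.23 on both arrays at high density and 1.54 and 1.46 at complete confluency, and the poly-A spike-ins went from 8.43 ± 0.07 to 8.80 ± 0.21 (SD, n = 2). The 9 fibroblast markers summed to 87739 and 87832 and then to 103039 and 103444, with 5 called higher and 0 lower. The epithelial markers summed to 1458 and 1469 and then to 1015 and 1031, with 1 of 6 called, Krt14 (-0.82). Their part in the result was not tested.

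Tead2-EnR was set against control at the same nominal density to ask what the repressor did. For Tead2-EnR cells that density was relative to their own confluency, and no cell count per dish is used here. The vector and the number of cells therefore cannot be told apart in this comparison. Nid2 rose 2.52-fold, from 5.36 ± 0.15 to 6.70 ± 0.06 (SD, n = 2), and Lamb2 2.22-fold, from 7.68 ± 0.14 to 8.83 ± 0.08, with adjusted p of 1.8e-06 and 3.1e-06. Lama4 rose by 0.54. Nid1 and Lamb1 fell, by 0.67 and 0.48 on the log2 scale (adjusted p = 7.1e-05 and 0.00024). Lamc1 was at -0.11 and did not pass.

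These 3 rises and 2 falls stand beside 20.3% of all genes called higher and 18.1% lower (38.4% in all). The density comparison shares the low-density control arrays and had Nid2 at 3.54, Lamb2 at 1.63, Lama4 at 0.87, Nid1 at -0.48 and Lamb1 at 0.21. By probe set, 4 of 19 rose and 5 fell with Tead2-EnR, where 33.5% of all probe sets were called: Lama4 was at 0.54 and 0.44, Nid1 at -0.67 and -0.72, and Lamb1 at -0.48, -0.56 and -0.61 on its 3 brighter ones. Against confluent control, Tead2-EnR cells were lower in Nid2 (-2.21), Lamc1 (-0.84), Lamb1 (-0.69), Lamb2 (-0.48) and Lama4 (-0.33), which makes 5 of 9 called where 34.7% of all genes were. With arrays centred on their medians, Lamc1 was at -0.23 with Tead2-EnR against low-density control and was called lower. Beside these values, the 9 fibroblast markers summed to 79783 and 80263 on the Tead2-EnR arrays and 67368 and 68690 on the control arrays. Of these, 7 were called higher and 0 lower, among them Pdgfra (1.92) and Col3a1 (1.04). The 6 epithelial markers summed to 2316 and 2345 against 2747 and 2992, with 1 called higher and 1 lower. The 5 macrophage markers summed to 1609 and 1646 against 404 and 422, from Lyz2 (10.49 ± 0.03 against 7.76 ± 0.07). Ptprc (3.26), Adgre1 (4.65) and Cd68 (4.56) were below the median gene with Tead2-EnR, and Csf1r (7.01) was above it. Cd68 was called lower than in control (-0.57), and Ptprc, Adgre1 and Csf1r were not called. The Tfrc gap was 1.12 ± 0.02 with Tead2-EnR, and the poly-A spike-ins were at 8.67 ± 0.05 (SD, n = 2). The part of these markers, of the Tfrc gap and of the spike-ins in the result was not tested.

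Tead2-VP16 was compared with control with both at complete confluency, to ask what the activator did. Cells with Tead2-VP16 still proliferated slightly above the density at which normal cells are confluent, and no cell count per dish is used here, so here too the vector and the number of cells cannot be told apart. Nid1 rose 1.57-fold, from 10.27 ± 0.04 to 10.92 ± 0.02, and Lamc1, its binding partner in the matrix, 1.56-fold, from 9.52 ± 0.04 to 10.16 ± 0.07 (SD, n = 2; adjusted p = 0.00072 and 0.00037). Lamb2 rose by 0.35 (adjusted p = 0.0256). Nid2 fell by 0.55 on the log2 scale, to 8.36 ± 0.10 from 8.91 ± 0.10 (adjusted p = 0.00372).

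That made 3 of 9 genes higher and 1 lower, where 5.06% and 4.92% of all genes were called (9.98% in all). By probe set it was 4 and 1 of 19, with 7.14% of all probe sets called. Lama4 (0.26), Lamb1 (0.17) and Hspg2 (-0.25) did not pass, with adjusted p between 0.0852 and 0.137. The rise of Nid1 was called on both brighter probe sets (0.65 and 0.42), but that of Lamc1 on 1 of 2 (0.64 against 0.21, adjusted p = 0.48). The Lamb2 call was lost without any one of the 4 arrays (0.30 to 0.40) and in a fit of those arrays alone. With a variance trend or a filter on low genes, 7 members were called, the added ones being Lama4, Lamb1 and Hspg2. The second Hspg2 probe set was at 0.11 and was not called in the fit over all probe sets. The Tfrc gap was 1.54 and 1.46 on the Tead2-VP16 arrays and 1.17 and 1.44 on the control arrays, and the poly-A spike-ins were at 8.80 ± 0.21 and 8.71 ± 0.14 (SD, n = 2). Of the 6 epithelial markers 1 was called higher and 2 lower with Tead2-VP16, with Krt14 at 9.18 against 10.11 and Cdh1 at 6.46 against 5.63, and their sum was 1015 and 1031 against 1586 and 1632. Their part in the result was not tested.

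The effects of the 2 fusions were then compared in 1 contrast, Tead2-EnR minus control at low density less Tead2-VP16 minus control at complete confluency. The groups share no arrays, and the densities differ; the contrast was added after the values were seen. Nid2 and Nid1 each changed in opposite directions in the 2 comparisons, which also differ in density. Nid2 was 1.33 higher with Tead2-EnR and 0.55 lower with Tead2-VP16 (difference 1.88 ± 0.12 SE, adjusted p = 3.3e-06), and Nid1 0.67 lower and 0.65 higher (difference -1.32 ± 0.11 SE, adjusted p = 1.3e-05).

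Lamb2 rose with both fusions, more so with Tead2-EnR (difference 0.80 ± 0.11 SE). Lamc1 differed by -0.76 ± 0.09 and Lamb1 by -0.66 ± 0.09 (SE), both lower with Tead2-EnR than with Tead2-VP16, each against its own control. These 2 higher and 3 lower differences of 9 stand beside 17.7% of all genes called higher and 15% lower (32.7% in all). On the second Lamc1 probe set the changes were 0.10 with Tead2-EnR and 0.21 with Tead2-VP16, neither called. Among all genes, 864 of the 1263 called in both single comparisons had opposite signs, and among the 3 members called in both it was 2, Nid1 and Nid2. The Lama4 difference (0.29, adjusted p = 0.0939) was called without the second low-density control array (0.41), with the variance trend, with the filter on low genes and with the mean of its probe sets.

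**Figure D2:**
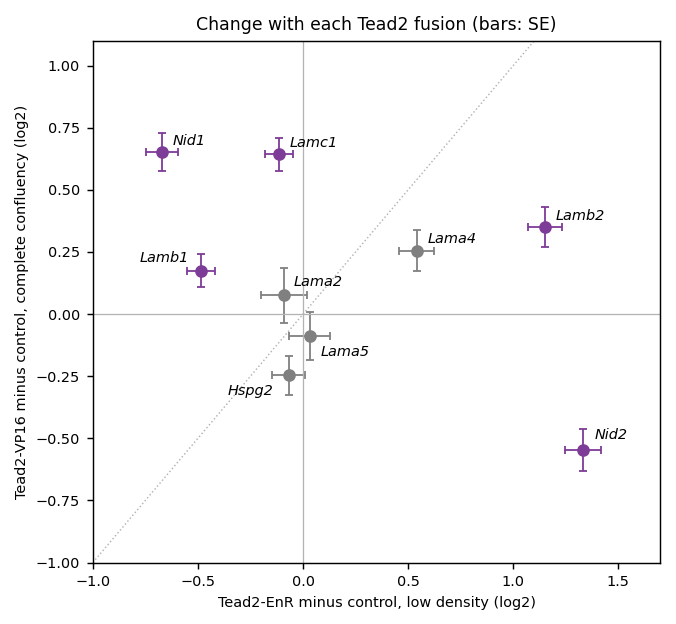
Log2 fold change with Tead2-EnR at low density (horizontal) and with Tead2-VP16 at complete confluency (vertical), each against its control, with SE; purple points have a difference between the effects with adjusted p below 0.05 and the dotted line marks equal effects. Nid1 lies at -0.67 and 0.65, Nid2 at 1.33 and -0.55.

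Yap and Tead2-VP16 cells at high density were set against confluent control, the nearest control in density, so that vector and density cannot be told apart. Nid2 was the gene with the greatest difference in both, at 6.99 ± 0.06 with Yap and 7.13 ± 0.01 with Tead2-VP16 against 8.91 ± 0.10 (SD, n = 2), which is 3.78-fold and 3.43-fold lower. Lamb1 was lower too, by 0.54 with Yap and 0.29 with Tead2-VP16. The 2 vectors then parted: Nid1 was 0.54 higher with Tead2-VP16 (adjusted p = 0.00059) and at 0.11 with Yap (adjusted p = 0.384), and Lamc1 was 0.34 lower with Yap (adjusted p = 0.00398) and at 0.12 with Tead2-VP16 (adjusted p = 0.244).

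With Yap, 3 of 9 genes were lower and 0 higher, where 14.5% of all genes were called lower and 11.7% higher (26.1% in all). With Tead2-VP16, 2 were lower and 1 higher, where 13.7% and 13.2% were (26.9% in all). By probe set, 6 of 19 were lower with Yap, with 21.9% of all called, and 4 lower and 2 higher with Tead2-VP16, with 23.3% called. Lamb2 was at -0.24 with Yap and -0.19 with Tead2-VP16, not called, but was called in both with the variance trend or the filter on low genes. Markers moved here too. The 9 fibroblast markers summed to 88234 and 89983 with Yap, 87739 and 87832 with Tead2-VP16, and 104526 and 106782 in confluent control, with 1 called higher and 4 lower with Yap and 5 lower with Tead2-VP16. The 6 epithelial markers summed to 1906 and 1942 with Yap, 1458 and 1469 with Tead2-VP16, and 1586 and 1632 in control, with 1 called higher and 1 lower with either vector (with Yap, Krt14 at 0.46 and Epcam at -0.54). The 5 macrophage markers summed to 501 and 534 with Yap, 489 and 510 with Tead2-VP16, and 686 and 711 in control, with Lyz2 at -0.63 and -0.77. Their part in the result was not tested. Without the second Tead2-VP16 array or the second confluent control array, the Lamb1 call with Tead2-VP16 was lost (-0.25 and -0.22). On the second probe set of Lamc1, Yap cells were at -0.19 and not called. On the second of Hspg2 they were at -0.43 and called (adjusted p = 0.00911), against -0.04 on the first.

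Set directly against each other at high density, Yap cells had less Lamc1 (9.17 ± 0.02 against 9.64 ± 0.10, adjusted p = 0.00905) and less Nid1 (10.38 ± 0.03 against 10.81 ± 0.01, adjusted p = 0.0198) than Tead2-VP16 cells. These were the 2 members called, both lower, where 1.08% of all genes were called lower and 0.934% higher (2.02% in all). By probe set, 3 of 19 were lower, with 2.17% of all called. Of Nid1's probe sets, the second was also called (-0.51), but the second of Lamc1 was at -0.06. The 2 calls rest on the full set of arrays. With only these 4 arrays none of the 9 was called by limma (4 at an unadjusted p below 0.05), nor with any one of 3 of them left out (3 at an unadjusted p below 0.05 each time), and Lamc1 alone was called without the second Tead2-VP16 array. Lamb1 (-0.25) was in turn called lower with the filter on low genes (adjusted p = 0.0191) and with the variance trend (adjusted p = 0.00537). Krt14 was 0.57 higher with Yap and Cdh1 was at -0.63, and their part in the result was not tested. Lama4, Lama5, Lama2, Lamb1, Lamb2, Nid2 and Hspg2 lay between -0.25 and 0.11 and did not pass in the reported fit, which does not show that the vectors act alike on them.

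**Figure D3:**
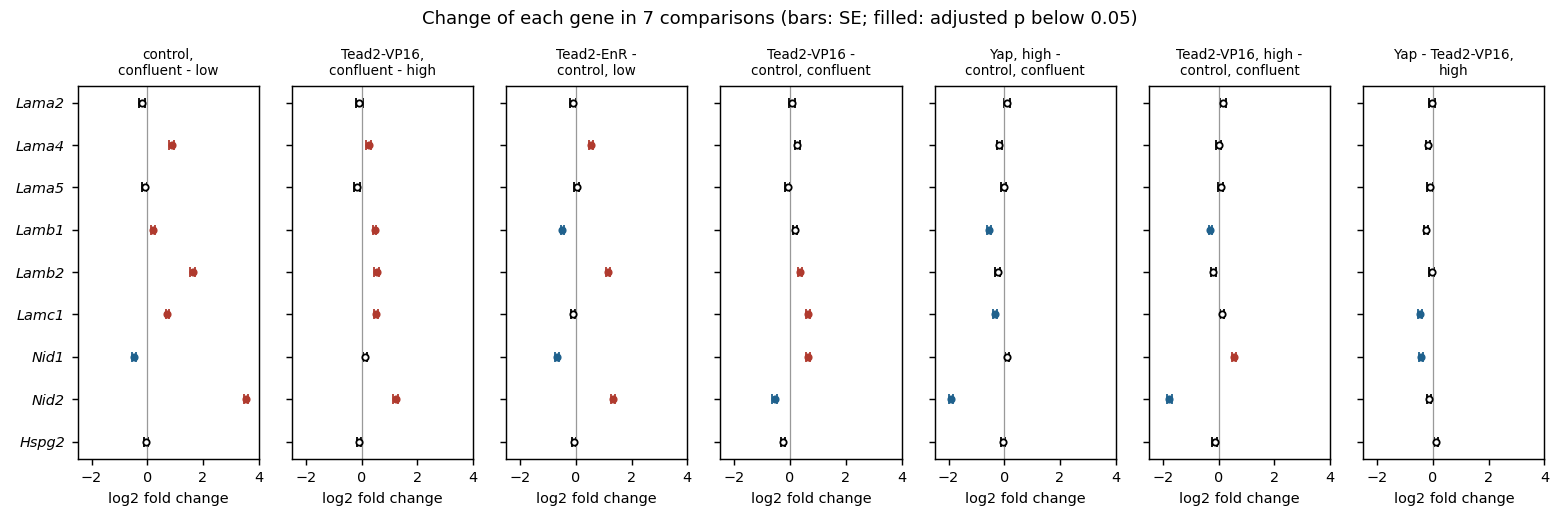
Log2 fold change (horizontal axes) of the 9 genes in 7 comparisons, with SE bars that mostly lie within the symbols; filled red and blue symbols are called higher and lower at an adjusted p below 0.05 and open symbols are not called. Nid2 spans the widest range, from -1.92 to 3.54, and Lama2, Lama5 and Hspg2 are open throughout.

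Other proteins of the basement membrane were followed with a list of 21 genes, all measured. With density in control, 11 rose and 1 fell (median 0.29, against -0.011 over all genes), where 26.1% of all genes were called higher and 22.8% lower. Agrn, the heparan sulphate proteoglycan agrin, rose 4.34-fold, from 8.27 ± 0.02 to 10.39 ± 0.06 (SD, n = 2), and Col4a6, a collagen IV chain, 3.33-fold. Ecm1, which binds perlecan, rose 3.03-fold and Pxdn, the peroxidase that cross-links collagen IV, 2.68-fold. With Tead2-EnR 8 rose and 3 fell, among them Col4a6 at 1.36 and Ecm1 at 1.23, where 20.3% and 18.1% of all genes did.

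With confluent Tead2-VP16, 4 were higher and 3 lower, where 5.06% and 4.92% of all genes were. They included Tinagl1, a matricellular protein of basement membranes (0.93), and Pxdn (-0.51). At high density, against confluent control, 2 were higher and 5 lower with Yap (11.7% and 14.5% of all genes), and 3 higher and 6 lower with Tead2-VP16 (13.2% and 13.7% of all genes). Agrn was at -0.96 with Yap and -0.95 with Tead2-VP16, and Col4a1, a main collagen IV chain, was 0.78 higher with Tead2-VP16. Between Yap and Tead2-VP16, 3 were lower with Yap, among them Col4a2 at -0.41 and Col4a1 at -0.30, where 1.08% of all genes were. In the density step of Tead2-VP16 cells 5 rose and 1 fell, with Col4a5 at 0.80 and Agrn at 0.57, where 12.1% and 12.4% of all genes did.

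Of the 12 laminin receptor genes, 4 rose and 2 fell with density in control, which is close to the 48.9% of all genes called. Itga6, an integrin subunit that binds laminin, fell by 0.81 on the log2 scale, from 11.02 ± 0.03 to 10.20 ± 0.02 (SD, n = 2), and Dag1, which encodes dystroglycan, rose by 0.87. Sdc2, a syndecan, rose by 0.69 and so did Itgb4, the partner of Itga6 in hemidesmosomes. With Tead2-EnR 4 rose and 1 fell, near the 38.4% of all genes called. Itga1, a subunit of a collagen and laminin receptor, rose 3.04-fold to 7.71 ± 0.03, and Itga6 fell by 0.85. With confluent Tead2-VP16, 3 rose and 2 fell, where 9.98% of all genes were called, with Itga6 0.96 higher and Sdc1 at -0.57.

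At high density, against confluent control, 3 receptor genes were higher and 1 lower with either vector, near the 26.1% (Yap) and 26.9% (Tead2-VP16) of all genes called. Sdc4, the syndecan of focal adhesions, was 1.02 higher with Yap, and Itga6 0.62 higher with Yap and 0.96 with Tead2-VP16. Itgb1, the common integrin beta chain, was 0.45 higher with Tead2-VP16. Directly compared, Yap cells had less Itga6 (-0.34) and more Sdc4 (0.47), the 2 receptor genes called, where 2.02% of all genes were. In the density step of Tead2-VP16 cells 1 rose and 3 fell, including Sdc4 (-0.71) and Sdc1 (-0.51), where 24.5% of all genes were called.

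Of the enzymes that build the laminin-binding sugar of dystroglycan, 8 were measured from a list of 12. With density, where 48.9% of all genes were called, 3 rose and 1 fell, with B4gat1 at 0.38, Pomk at 0.65, Pomgnt2 at 0.30 and B3galnt2 at -0.59, and 1 fell with Tead2-EnR, B3galnt2 (-0.54), where 38.4% were called. With confluent Tead2-VP16 (9.98% of all genes called), B3galnt2 was 0.26 higher and Rxylt1 was lower (-0.26). Against confluent control, 3 were lower with Yap (14.5% of all genes), B4gat1 at -0.41 and Pomk at -0.34 among them. With Tead2-VP16, 2 were higher and 2 lower (26.9% of all genes called), including B3galnt2 (0.25) and B4gat1 (-0.35). In the density step of Tead2-VP16 cells, B4gat1 rose by 0.39 and Pomgnt1 fell by 0.35, where 24.5% of all genes were called. The 4 other laminin chains measured, Lama1, Lama3, Lamb3 and Lamc3, were all below the median gene, at group means from 3.49 to 5.71. Among them, Lamb3 was at -0.46 with density and Lama3 at -0.32 with Tead2-EnR, both called lower, where 22.8% and 18.1% of all genes were.

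**Figure D4:**
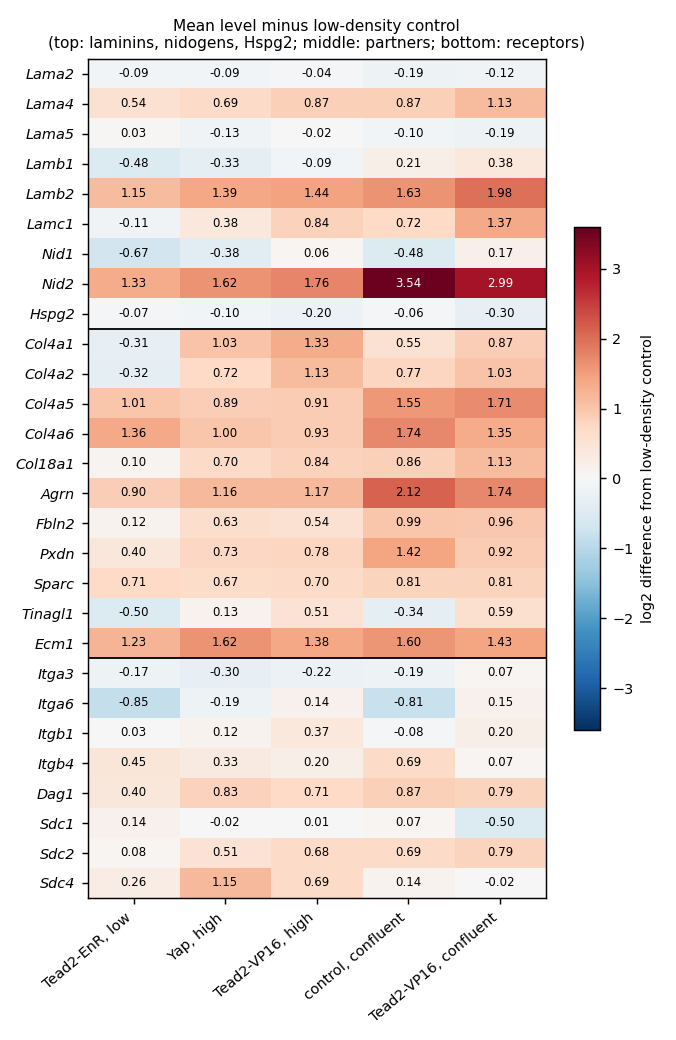
Mean log2 level of each group minus that of low-density control (columns: 5 groups; rows: the 9 genes, then 11 partners and 8 receptors that lie above the median gene); red is higher and blue lower. In the confluent control column, Nid2 (3.54) and Agrn (2.12) are the darkest, and Itga6 (-0.81) and Nid1 (-0.48) are blue.

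The genes whose group means ran most like those of a member were sought among 2129 genes above the median and with a range of at least 1 log2 unit. For Nid2 they were Kidins220 (Pearson r = 0.997 over 6 group means), Antxr1 (0.997) and Limd2 (0.996). For Lamb2 they were Erlec1, Snx33 and Tvp23b (0.996 each). Lamc1 had looser matches in Jcad (0.987), Dipk1a (0.986) and Thbs2, thrombospondin 2 (0.979). With 6 points and so many candidates, coefficients this high describe the order of the groups and no more. Among the members themselves, Lamb2 and Lama4 had r = 0.99 over the 6 group means, and Nid1 and Nid2 -0.07.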

How the data were processed

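Gene expression was measured in 12 samples, 6 groups of 2. The deposited values are probe set intensities. RMA is named in the submitters' processing notes, without a version; the array definition is not given in the sources used here. They ran from 3.77 to 25980 on a linear scale with array medians of 51.9 to 53.7, so log2 was taken of the deposited intensity. No detection calls were used. Precision is limited by having 2 arrays per group. Of 45101 probe sets, 64 were controls, 34945 had 1 symbol, 932 several and 9160 none. A gene was read from its probe set with the highest mean. Replicate arrays correlated at r = 0.9976 to 0.9986, and no 2 arrays were identical.

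All 12 arrays were fitted with 1 mean per group in limma 3.58.1 (lmFit, contrasts.fit, eBayes; R 4.3.3; 6 residual and 3.45 prior degrees of freedom), two-sided, with Benjamini-Hochberg adjustment over 18193 genes within each comparison and calls at an adjusted p below 0.05. Probe sets other than a gene's brightest were read from the same fit over 34945 probe sets. The script was tested on simulated data. Named genes outside the members were picked by adjusted p among the called genes of a list, smallest first, up to 4 for density in control and up to 2 for each other comparison; where fewer were called, fewer are named. Members, lists, tests and the naming rule were chosen with earlier results of these data known. Plots were made in Python 3.11.15 (matplotlib 3.10.9).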

Additional observations from a re-analysis of the deposited data

How the results depend on the processing

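For the 9 genes in the 7 comparisons and the added contrast, the calls were recomputed with low genes left out, with all probe sets tested, with a gene's probe sets averaged, with replicate number as a block, with a trend in the variance and a robust prior, with quantile normalization repeated, with arrays centred on their medians, with the compared arrays alone, and without each array in turn. The other gene lists, the steps between neighbouring groups outside these comparisons, and Tead2-EnR against confluent control were not recomputed. The cause of a change was not tested. For Tead2-VP16 at complete confluency, 4 members were called, but 7 with the filter or with the variance trend. For Yap against Tead2-VP16, 2 were called, but 0 with averaged probe sets (3 at an unadjusted p below 0.05 by limma) and 0 with the 4 arrays alone (4 at an unadjusted p below 0.05). Leaving out an array there gave 0 to 1. Elsewhere the count stayed within 1.5 times the reported one. Of 33 single calls in 8 comparisons, 27 stayed called in the same direction under every alternative that tested the gene, and no alternative reversed a call; of 39 values that were not called, 29 were not called under any. With the replicate block, the counts were those reported for every comparison (6, 5, 4, 3, 3, 2, 5 and 5). Same-numbered arrays correlated at -0.061 to 0.101 in their deviations from group means, above 0.1 in 1 of 15 pairs of groups and above 0 in 10, so the numbers were not taken to pair the arrays. The poly-A spike-ins were nevertheless higher on the second array than on the first in every group, such as 8.36 and 8.24 in low-density control. Why they were higher was not tested.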
